A study of Mus musculus with 6 samples.

Results

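Mature neutrophil genes were examined in RNA sequencing libraries of mouse splenic dendritic cells, which take up antigen and present it to T cells. The set named 8 genes of late, mature neutrophils, namely S100a8, S100a9, Cxcr2, Retnlg, Ly6g, Fpr1, Fpr2 and Stfa2l1. They were found by symbol among the 23420 genes counted, and 7 of the 8 had a row. Ly6g, which encodes the surface antigen most used to mark mouse neutrophils, was the one without a row and was not analysed here. All 7 genes passed the filter on low counts, as did 14388 of the 23420 genes. In all, 2 groups of 3 libraries each were compared, labelled TBK1-DKO and wild type (WT). Every library came from strain C57BL/6, with an age given as 8 weeks in the protocol and as 10 weeks in the sample characteristics. TBK1 is a kinase that links innate immune sensors to interferon and inflammatory genes. What DKO stands for, the alleles, the sorting of the cells and any pooling of animals were details not given in the sources used here. The labels do not say that the libraries came from separate animals, so the p-values cover only the spread among these libraries, which may be technical.

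Neutrophils are made in the bone marrow and, in mice, also in the spleen. Their genes come on in sequence, with the enzymes of primary granules in early precursors, the proteins of specific and gelatinase granules in later precursors, and the receptors for chemokines and bacterial peptides towards the end. S100A8 and S100A9 form calprotectin, a calcium- and zinc-binding complex that fills the cytosol of neutrophils and is also made by monocytes. CXCR2 is the receptor by which neutrophils follow CXC chemokines out of the marrow and into tissue, and FPR1 and FPR2 sense formylated bacterial peptides. RETNLG is a secreted protein of the resistin family, and STFA2L1 belongs to the stefin A family of cysteine protease inhibitors.

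The sequences upstream of 5 of the genes are given because 2 neighbouring pairs, S100a8 with S100a9 and Fpr1 with Fpr2, form the contrast that the values below turn on, and because Retnlg moved in the direction of the first pair. Each is the stretch of 250 bases that ends at the base before the RefSeq start of the gene (build GRCm38.p6), read 5′ to 3′ on the gene's strand. All 7 genes with a row matched the RefSeq promoter table. Both strands of windows of 300 bases, which also take in the first 50 bases of the gene, were searched for TTGCNNAA, a pattern of C/EBP factors, GAGGAAG, a pattern of PU.1, and TGTGGTT, a pattern of RUNX factors. Capitals mark the matches.
S100a8, chr3:90668821-90669070, plus strand: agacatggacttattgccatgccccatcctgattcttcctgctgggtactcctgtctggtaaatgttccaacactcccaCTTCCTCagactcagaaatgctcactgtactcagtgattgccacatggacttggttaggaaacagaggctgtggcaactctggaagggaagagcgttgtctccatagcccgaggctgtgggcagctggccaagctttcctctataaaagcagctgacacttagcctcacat
S100a9, chr3:90695722-90695971, minus strand: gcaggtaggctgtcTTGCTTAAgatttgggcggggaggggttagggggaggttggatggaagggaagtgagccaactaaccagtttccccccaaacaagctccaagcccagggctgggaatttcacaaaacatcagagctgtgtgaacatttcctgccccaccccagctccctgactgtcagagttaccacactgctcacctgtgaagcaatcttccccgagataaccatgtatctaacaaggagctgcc
Retnlg, chr16:48872358-48872607, plus strand: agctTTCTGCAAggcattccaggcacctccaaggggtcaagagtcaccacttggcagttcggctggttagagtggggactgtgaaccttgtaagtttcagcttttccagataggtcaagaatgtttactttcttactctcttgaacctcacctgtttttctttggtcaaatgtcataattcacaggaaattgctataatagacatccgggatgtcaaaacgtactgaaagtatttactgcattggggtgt
Fpr1, chr17:17883940-17884189, minus strand: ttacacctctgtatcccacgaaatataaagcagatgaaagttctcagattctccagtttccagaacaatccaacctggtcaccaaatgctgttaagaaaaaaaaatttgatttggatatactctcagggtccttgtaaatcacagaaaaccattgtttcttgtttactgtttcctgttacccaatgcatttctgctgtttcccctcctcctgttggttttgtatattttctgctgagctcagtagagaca
Fpr2, chr17:17887574-17887823, plus strand: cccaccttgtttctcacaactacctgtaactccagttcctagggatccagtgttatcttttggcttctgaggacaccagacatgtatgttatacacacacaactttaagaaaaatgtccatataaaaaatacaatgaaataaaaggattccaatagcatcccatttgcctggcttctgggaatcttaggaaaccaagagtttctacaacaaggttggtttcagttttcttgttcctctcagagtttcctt
The S100a9 window held the C/EBP pattern once, starting at -236 relative to the gene start. The Retnlg window held it once, on the opposite strand from -246. The S100a8 window held the PU.1 pattern once, on the opposite strand from -171. None of the 3 patterns was found in the windows of Cxcr2, Fpr1, Fpr2 and Stfa2l1, and none of the 7 windows held the RUNX pattern. Of all 32851 windows of this length, 10.8% held the C/EBP pattern, 13.6% the PU.1 pattern and 5.27% the RUNX pattern, so single matches in a few of 7 genes describe the sequence and nothing more.

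Tbk1, the gene named in the labels, had 3964, 3606 and 3771 reads in the libraries labelled TBK1-DKO and 2850, 2909 and 2814 reads in those labelled WT. At 82.27 ± 2.69 against 85.04 ± 5.08 CPM (SD, n = 3) it was not called (log2 fold change -0.05, interval -0.18 to 0.09; adjusted p = 0.63, quasi-likelihood test), and the groups overlapped. The whole-gene count thus does not show a loss of Tbk1, and since the altered part of the gene is not known here, the count cannot check the labels. TBK1-DKO and WT below are names of labels, and each direction given rests on them. The libraries held 45018389 to 47349648 gene reads in TBK1-DKO and 31077585 to 36145508 in WT. Libraries of the same group differed by more than sampling noise, and 2 stood apart, TBK1-DKO 2 (chi-square per degree of freedom 38.3 against either of the others, which differed by 2.47) and WT 1 (13 and 14.5, against 2.62 for the others). Deviations of TBK1-DKO 2 from its group followed the length of all exons of a gene joined (rho -0.5 by Spearman, across genes), and those of WT 1 followed GC content (rho -0.497). All 15 genes listed for dendritic cells had reads. Their summed levels were 11060 to 12460 CPM (reads scaled to a common library size) in TBK1-DKO and 11470 to 12860 CPM in WT. Most of each sum came from Cd74 and H2-Ab1, so it does not measure how pure the cells were. Of the 15, 2 rose, 5 fell and 8 were not called. Esam rose by 0.75 on the log2 scale, and Clec9a (-0.74), Siglech (-0.71), Xcr1 (-0.48) and Irf8 (-0.32) fell. The calls of Itgax (-0.20; adjusted p = 0.067 to 0.095) and Zbtb46 (0.35; adjusted p = 0.051 and 0.052) were lost without some libraries, Itgax without TBK1-DKO 1 or 3 or WT 1 or 2 and Zbtb46 without TBK1-DKO 1 or WT 3. Over all genes tested, 23.6% were called (Benjamini-Hochberg adjusted p under 0.05 in the quasi-likelihood test of edgeR), 13.7% upward and 9.90% downward. In 41.1% the groups did not overlap.

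The comparison asks whether transcripts of mature neutrophils differ between dendritic cell preparations of the 2 genotypes. In the libraries labelled TBK1-DKO both calprotectin genes rose, each to a little over 2-fold, Retnlg rose by 1.66-fold and Fpr2 by 1.41-fold. Cxcr2, Fpr1 and Stfa2l1 were not called. The count was thus 4 of 7 up, 0 down (also 0 at an unadjusted p under 0.05, and 0 by DESeq2 and limma-voom) and 3 not called, against the 13.7% of all genes that were called up. S100a8 and S100a9 were the 2 of the 7 that rose by at least 2-fold, as 2.01% of all genes did. The median log2 fold change was 0.49 over the 7 genes and 0 over all genes tested. Each library holds RNA of all the cells isolated, and which of these cells carried the transcripts was not tested. More cells that express these genes and more RNA of them per cell cannot be told apart.

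S100a8 (ENSMUSG00000056054.9, chromosome 3, 90668978 to 90670035, plus strand, 3 exons in transcript S100a8-201) was measured at 870, 1044 and 846 CPM in libraries 1, 2 and 3 labelled TBK1-DKO, and the WT libraries 1, 2 and 3 gave 515, 374 and 348 CPM. The highest TBK1-DKO and the highest WT library were the 2 that stood apart, and the groups did not overlap. With means of 920.2 ± 108 against 412.2 ± 89.7 CPM (SD, n = 3), the fitted log2 fold change was 1.16, with an SE of 0.14 and a 95% interval from 0.83 to 1.48 (adjusted p by edgeR = 0.00039). S100a9 (ENSMUSG00000056071.12, chromosome 3, 90692632 to 90695721, minus strand, 3 exons in S100a9-202), which encodes the other subunit, was at 1418, 1704 and 1385 CPM in the libraries labelled TBK1-DKO, whereas WT gave 794, 641 and 602 CPM. The same 2 libraries were the highest of their groups, again without overlap. Its means of 1502 ± 175 against 679.1 ± 101 CPM gave a fitted log2 fold change of 1.15, with an SE of 0.11 and an interval from 0.89 to 1.4 (adjusted p by edgeR = 7e-05). Without TBK1-DKO 2 and WT 1 the log2 fold changes were 1.24 for S100a8 and 1.16 for S100a9, both called. The pair supplied 93.3% to 93.9% of the reads of the 7 genes in TBK1-DKO and 87.7% to 90.4% in WT, and 0.223% to 0.274% against 0.0947% to 0.132% of all gene reads. A sum over the set is therefore almost a sum of calprotectin.

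Retnlg (ENSMUSG00000022651.6, chromosome 16, 48872621 to 48874496, plus strand, 4 exons) was at 50.7, 57.5 and 49.9 CPM in the libraries labelled TBK1-DKO, whereas WT gave 32.2, 32.1 and 30.7 CPM. TBK1-DKO 2 was again the highest, the WT libraries lay close together and the groups did not overlap. The fitted log2 fold change was 0.73, with an SE of 0.07 and an interval from 0.58 to 0.89 (adjusted p by edgeR = 5.3e-05), and it was 0.67 without TBK1-DKO 2 and WT 1.

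**Figure D1:**
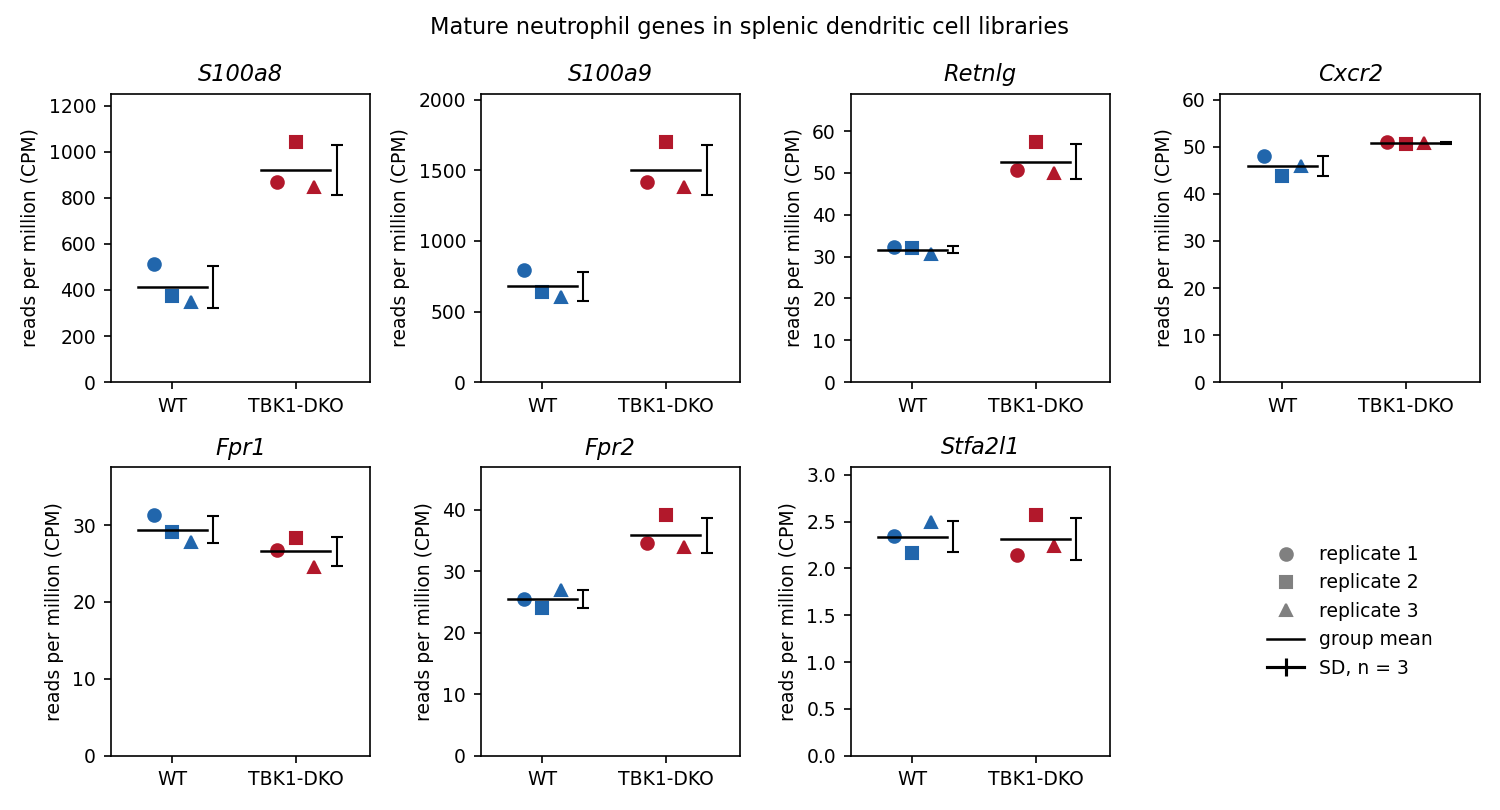
Level of each of the 7 mature neutrophil genes in CPM (vertical axis, from 0) in the 3 WT and 3 TBK1-DKO libraries (points, one shape per replicate number), with the group mean (line) and SD (bar). S100a8, S100a9, Retnlg and Fpr2 are higher in every TBK1-DKO library by a clear margin, Cxcr2 by a narrow one, and the groups overlap for Fpr1 and Stfa2l1.

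The chemokine receptor gene Cxcr2 (ENSMUSG00000026180.8, chromosome 1, 74153989 to 74161246, plus strand, 2 exons in Cxcr2-202) was at 51.1, 50.6 and 50.7 CPM in the libraries labelled TBK1-DKO, whereas WT gave 48.1, 43.8 and 45.9 CPM. The TBK1-DKO libraries were nearly equal and all lay above the WT libraries, as did those of 21.5% of all genes tested. With means of 50.81 ± 0.228 against 45.92 ± 2.17 CPM, the fitted log2 fold change was 0.15, with an SE of 0.06 and an interval from 0.02 to 0.28. The gene was not called (p by edgeR = 0.03 unadjusted and 0.099 adjusted). It was called upward with length and GC trends taken out (log2 fold change 0.18, adjusted p by edgeR = 0.013) and without TBK1-DKO 2 and WT 1 (0.17, adjusted p = 0.00091). In the first of those fits 31.8% of all genes were called in either direction, and in the second 47.7%, with 24.2% upward. A share of 6.77% of the windows of 50 bases in its transcript occurred in transcripts of 220 other genes.

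The formyl peptide receptor genes lie side by side on chromosome 17, and their fold changes had opposite signs. Fpr1 (ENSMUSG00000045551.7, 17876471 to 17883940, minus strand, 2 exons) was at 26.8, 28.3 and 24.6 CPM in the libraries labelled TBK1-DKO, whereas WT gave 31.3, 29.1 and 27.8 CPM. The WT libraries tended higher, with overlap between TBK1-DKO 2 and WT 3. The fitted log2 fold change was -0.15, with an SE of 0.08 and an interval from -0.32 to 0.02 (adjusted p by edgeR = 0.2). Fpr1 was called downward without TBK1-DKO 2 (-0.22, adjusted p = 0.04) and without both TBK1-DKO 2 and WT 1 (-0.16, adjusted p = 0.016, where 23.5% of all genes were called down).

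Fpr2 (ENSMUSG00000052270.7, 17887824 to 17893952, plus strand, 2 exons in Fpr2-201) was at 34.5, 39.1 and 33.9 CPM in the libraries labelled TBK1-DKO, whereas WT gave 25.5, 24.0 and 26.9 CPM. The groups did not overlap, and TBK1-DKO 2 was once more the highest. The fitted log2 fold change was 0.49, with an SE of 0.08 and an interval from 0.32 to 0.66 (adjusted p by edgeR = 0.0011). Of the 1084 windows of 50 bases in its transcript, 37.2% also occurred in transcripts of other genes, mostly of the pseudogene Gm5966 (368 windows) and of Fpr3 (77), so reads there may have been left out of its count. Only 1 of 1275 such windows of Fpr1 was shared, with Fpr2. Fpr3, whose exons overlap those of Fpr2 by 48 bases on the same strand, and the other relatives Fpr-rs3, Fpr-rs4 and Fpr-rs6 had 0 reads in all 6 libraries.

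Stfa2l1 (ENSMUSG00000059657.5, chromosome 16, 36156811 to 36161953, plus strand, 3 exons) was the least abundant, with 101, 117 and 101 reads in TBK1-DKO and 74, 78 and 84 reads in WT. Scaled to depth, these were 2.14, 2.57 and 2.24 CPM against 2.35, 2.17 and 2.5 CPM, and the groups overlapped. The fitted log2 fold change was -0.01, with an SE of 0.14 and an interval from -0.32 to 0.29 (adjusted p by edgeR = 0.96). The interval leaves room for a change in either direction, and the fitted changes of S100a8, S100a9, Retnlg and Fpr2 lay outside it. A share of 24.6% of its windows of 50 bases occurred in Stfa2 and the pseudogene Gm49652.

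**Figure D2:**
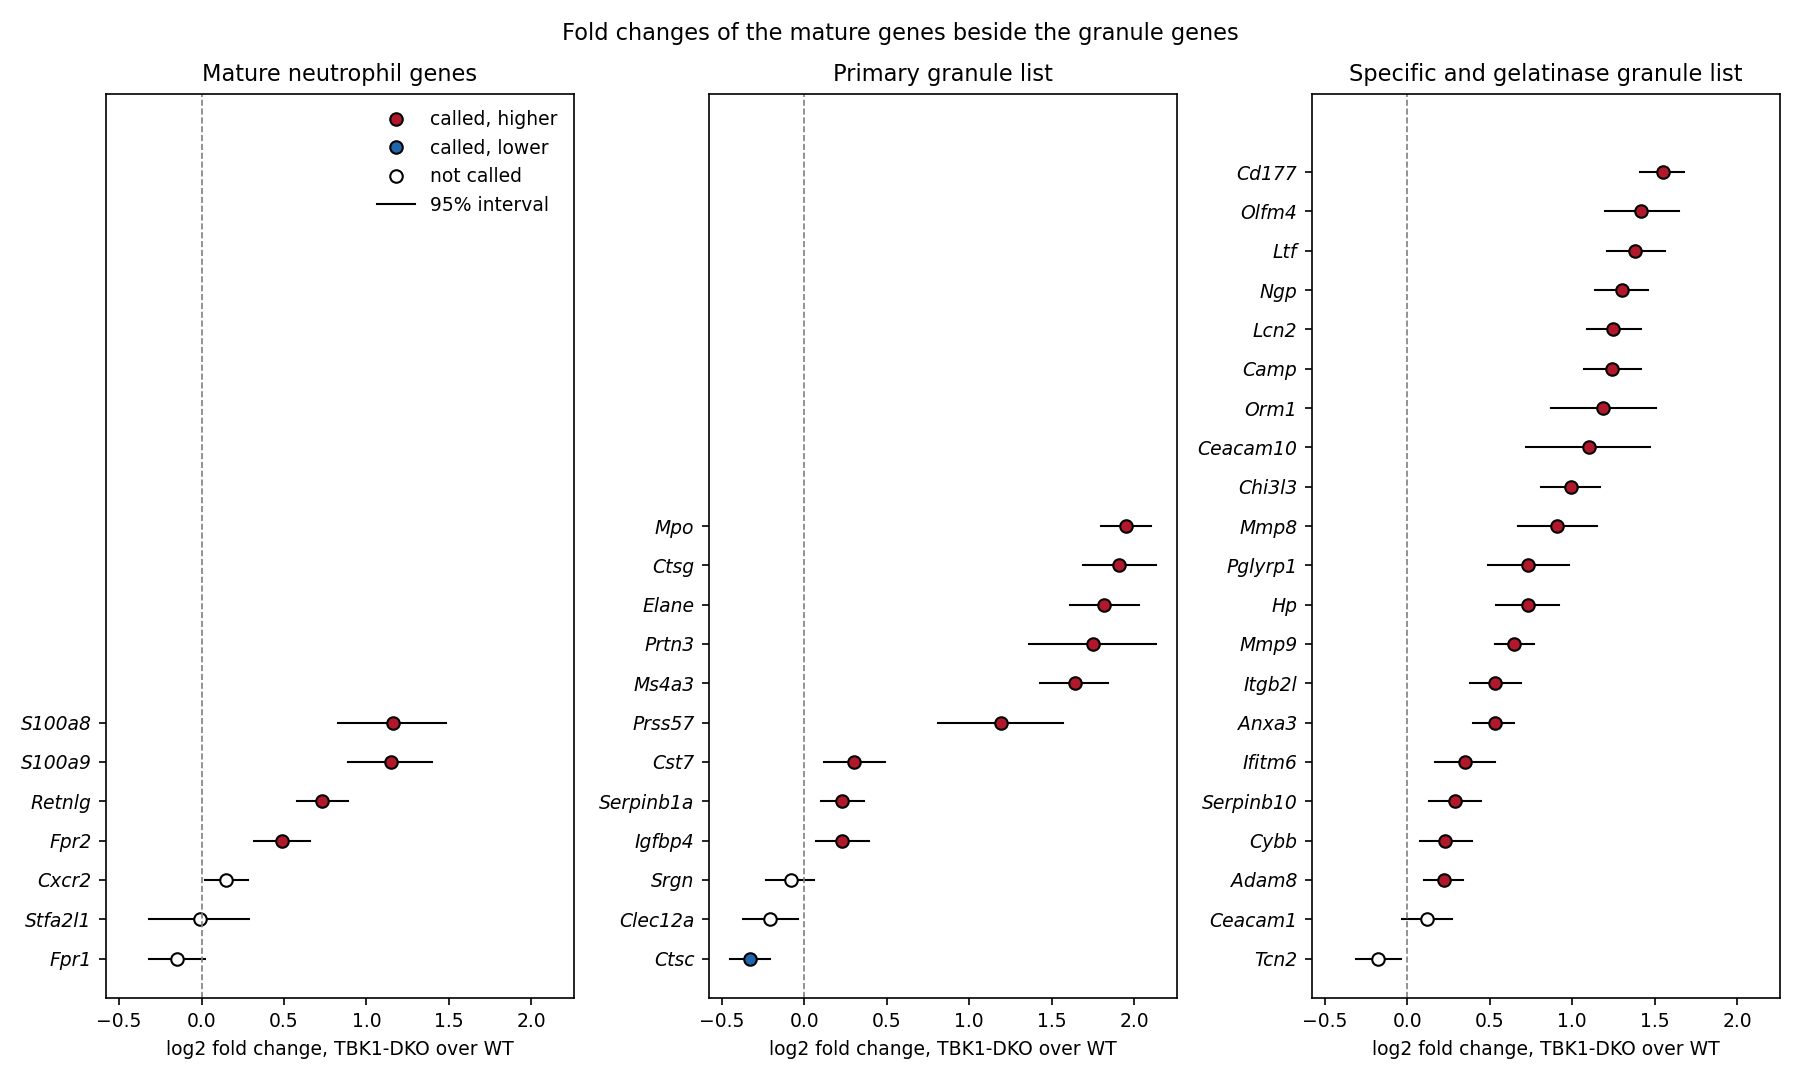
Log2 fold change of TBK1-DKO over WT (horizontal axis) with its 95% interval for the 7 mature neutrophil genes (left), 12 genes of the primary granule list (middle) and 21 of the specific and gelatinase granule list (right), filled where called. The mature genes run from -0.15 for Fpr1 to 1.16 for S100a8, and the granule genes reach 1.95 for Mpo and 1.55 for Cd177.

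Ratios of reads within a library do not depend on how libraries are scaled, and they were used to compare the genes with each other. For S100a8 over S100a9 the ratio was 0.614, 0.613 and 0.611 in TBK1-DKO and 0.649, 0.583 and 0.578 in WT. The TBK1-DKO values lay inside the WT range, and the mean log2 ratios differed by 0.02 (exact permutation test, two-sided p = 0.8). For Fpr1 over Fpr2 the ratio was 0.776, 0.725 and 0.725 in TBK1-DKO and 1.23, 1.21 and 1.03 in WT. Fpr1 thus had more reads than Fpr2 in every WT library and fewer in every TBK1-DKO library, a difference of -0.64 in the log2 ratio. For S100a9 over Cxcr2 the ratio was 27.8, 33.6 and 27.3 in TBK1-DKO and 16.5, 14.7 and 13.1 in WT. S100a9 reads per Cxcr2 read were higher in each TBK1-DKO library, by 1 in the log2 ratio. Trends with length do not cancel in this ratio, as the exons of S100a9 span 522 bases and those of Cxcr2 3048. The highest ratio, 33.6, was that of TBK1-DKO 2, whose deviations followed length. The part of such trends in the ratios was not tested.

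Of the 21 pairs among the 7 genes, 3 had ratio ranges that overlapped between the groups, S100a8 with S100a9, Cxcr2 with Stfa2l1 and Fpr1 with Stfa2l1. The pairs share their 7 genes, and single genes already did not overlap in 41.1% of all genes tested, so this count is no result about the set. Each of the other 18 reached p = 0.1 in the exact two-sided permutation test, the smallest possible with 3 against 3 libraries, and 0.117 after Benjamini-Hochberg adjustment over 35 ratios, so none could pass 0.05. In order of fold change the genes ran from S100a8 and S100a9 over Retnlg, Fpr2 and Cxcr2 to Stfa2l1 and Fpr1. The interval of Retnlg (0.58 to 0.89) overlapped those of S100a8 (from 0.83) and Fpr2 (up to 0.66) and ended where that of S100a9 began. The interval of Stfa2l1 overlapped those of Cxcr2 and Fpr1, and these met at 0.02.

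**Figure D3:**
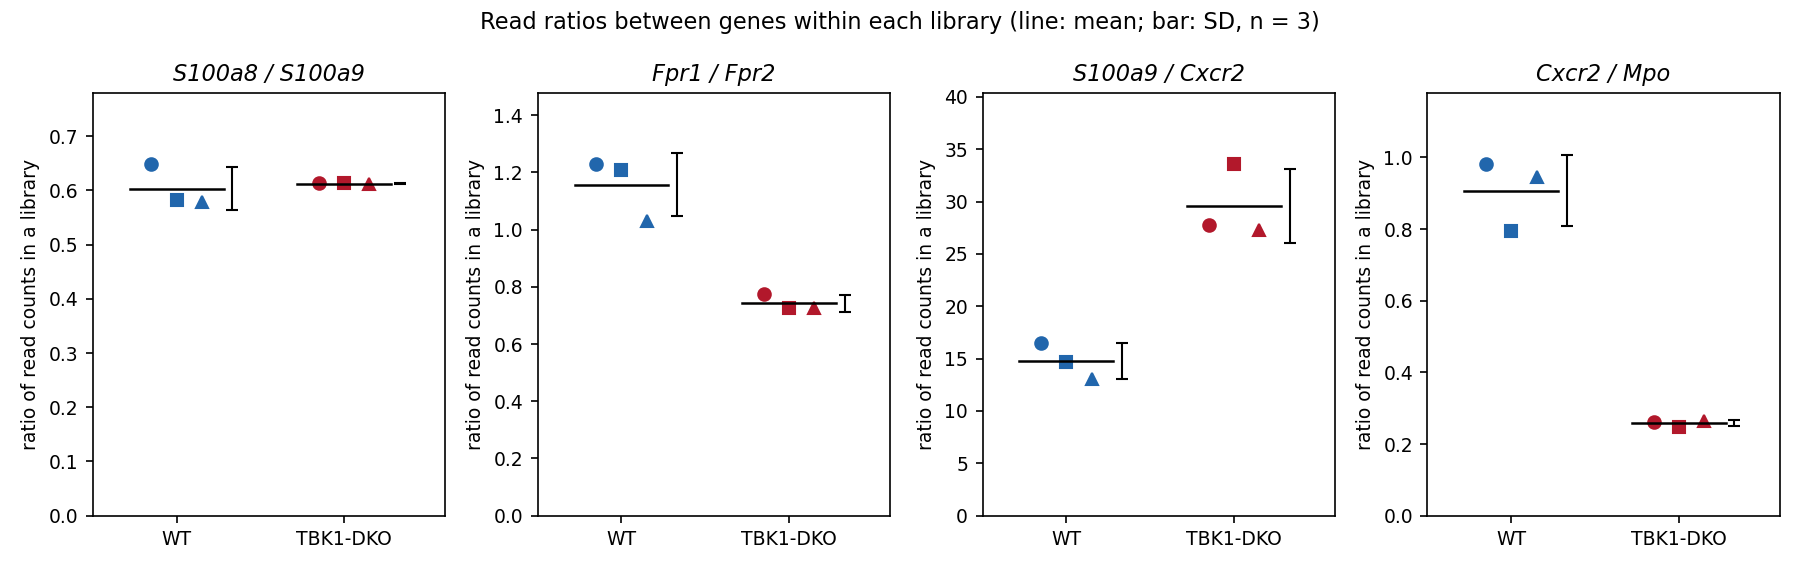
Ratio of read counts of 2 genes within a library (vertical axes, from 0) in the 3 WT and 3 TBK1-DKO libraries (points), with mean (line) and SD (bar). S100a8 over S100a9 stays near 0.61 in TBK1-DKO inside the WT range, Fpr1 over Fpr2 and Cxcr2 over Mpo are lower in every TBK1-DKO library, and S100a9 over Cxcr2 is higher.

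Per kilobase of transcript, which allows levels of different genes to be compared, the order in WT was S100a9 (1310 ± 195 CPM per kilobase, SD, n = 3), S100a8 (848 ± 185), Retnlg (53.4 ± 1.45), Fpr2 (22.5 ± 1.28), Fpr1 (22.2 ± 1.36), Cxcr2 (15.1 ± 0.713) and Stfa2l1 (5.58 ± 0.398). In TBK1-DKO the levels were 2890 ± 338, 1890 ± 223, 88.8 ± 7.03, 31.6 ± 2.49, 20.1 ± 1.41, 16.7 ± 0.0748 and 5.53 ± 0.537 in the same order of genes. As counted, the ranges of Fpr1 and Fpr2 were 21.0 to 23.7 and 21.1 to 23.7 in WT and 18.6 to 21.4 and 29.9 to 34.5 in TBK1-DKO. The level of Fpr2 takes no account of the 37.2% of its windows that are shared and may be too low, so the overlap of the 2 genes in WT is not secure. Ranges of no other pair of neighbours in the order overlapped in either group. The spread within a group was largest for S100a8 in WT (coefficient of variation 21.8%) and smallest for Cxcr2 in TBK1-DKO (0.448%).

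Genes of earlier neutrophil stages gave the comparison for the mature genes. The lists below were chosen with results of these data known. Among 12 tested genes of the primary granule list there were 9 that rose, 1 that fell (Ctsc) and 2 not called, with a median log2 fold change of 0.75. Mpo, myeloperoxidase, rose by 1.95 on the log2 scale (SE 0.07), Ctsg, cathepsin G, by 1.91 and Ms4a3, a marker of granulocyte and monocyte precursors, by 1.64. The smaller rises of Igfbp4 (0.23), Serpinb1a (0.23) and Cst7 (0.30) lost their call without WT 2 or without WT 3 (adjusted p = 0.06 to 0.18, quasi-likelihood test), Cst7 also without TBK1-DKO 2 or 3 and Igfbp4 without any one library. The list also holds Srgn, Ctsc and Clec12a, which dendritic cells and macrophages express. Whether those cells shaped the values of this list was not tested. Among 21 tested specific and gelatinase granule genes there were 19 that rose, 0 that fell and 2 not called, with a median of 0.73. With 1 library left out, 15 to 20 were called up. Adam8, Cybb, Serpinb10 and Ifitm6 lost their call without WT 2 or without WT 3 (adjusted p = 0.064 to 0.16, quasi-likelihood test). At an unadjusted p under 0.05 by edgeR 1 was lower, and DESeq2 and limma-voom called 0 down. Cd177, a neutrophil surface protein, rose by 1.55, Ltf, lactoferrin, by 1.38 and Camp, the cathelicidin gene, by 1.24, whereas Mmp9, the gelatinase gene, rose by 0.65. The calprotectin fold changes were close to that of Camp. The log2 ratio of S100a9 to Camp differed between groups by -0.09 with overlap (two-sided exact permutation test, p = 1). Camp was taken for this ratio with values known, from a list whose fold changes ran from -0.18 to 1.55, so the closeness is a description only. With 3 against 3 libraries the test cannot show that the ratio was the same in both groups.

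The ratio of Cxcr2 to Mpo reads was 0.262, 0.248 and 0.264 in TBK1-DKO and 0.982, 0.794 and 0.945 in WT, so that Mpo had about as many reads as Cxcr2 in WT and several times as many in TBK1-DKO. Mpo was taken for this ratio with values known and has the highest fold change of its list, so a lower ratio followed from the choice and is a description only.

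Of 40 further genes of late neutrophils 37 were tested, of which 17 rose, 8 fell and 12 did not pass, with a median of 0.27. Over all genes tested, 13.7% rose and 9.90% fell. With 1 library left out, 12 to 17 of this list were called up and 7 to 12 down. Wfdc21 (counted under the older symbol 1100001G20Rik) and Wfdc17, which encode small secreted proteins with a WAP domain, rose by 1.23 and 0.94 on the log2 scale. Ltb4r1, the leukotriene B4 receptor gene, rose by 1.28 on the log2 scale, Padi4, the enzyme of histone citrullination, by 1, Lrg1 by 0.84 and Trem3 by 0.53. Csf3r, the receptor for the neutrophil growth factor G-CSF, rose by 0.17, a call lost without TBK1-DKO 1 or 3 or WT 2 or 3 (adjusted p = 0.14 to 0.2, quasi-likelihood test) and under 6 other settings. Those that fell included Slpi, a protease inhibitor (log2 fold change -0.68), Pilra (-0.46), Dusp1 (-0.46), Trem1 (-0.37) and Il1b, interleukin 1 beta (-0.35). Many genes of this list, whether they rose or fell, are also expressed by other myeloid cells, whose part was not tested. Of 12 transcription factors of granulocyte development, 5 rose, 1 fell and 6 were not called, where 13.7% of all genes rose and 9.90% fell. The rise of Cebpd (0.4) was lost without TBK1-DKO 1 or 3 or WT 2 (adjusted p = 0.055 to 0.088, quasi-likelihood test) and under 2 other settings. Cebpe, which drives the specific granule stage, rose by 1.64 (SE 0.11), while Cebpa (-0.04), Cebpb (-0.07) and Gfi1 (0.00) were not called. Of 6 NADPH oxidase genes, 2 rose, Cybb and Ncf1, and 4 were not called. Both calls were lost without any of TBK1-DKO 1, TBK1-DKO 3, WT 2 and WT 3 (adjusted p = 0.075 to 0.21, quasi-likelihood test). That of Ncf1 was also lost without WT 1 (adjusted p = 0.11) and under 6 other settings. Over all 18 alternatives 0 to 2 of these 6 genes were called up and 0 to 4 down.

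Ligands and partners of the receptors moved in both directions. The 25 tested genes split into 7 that rose, 5 that fell and 13 not called, with a median of -0.01. Of all genes tested, 13.7% rose and 9.90% fell. Over all 18 alternatives 6 to 9 of the 25 were called up and 2 to 11 down. With 1 library left out 3 to 5 were called down, the call of Cxcl12 (-0.52) being lost without any one library but WT 1 (adjusted p = 0.068 to 0.17, quasi-likelihood test). Among ligands of CXCR2, Cxcl2, a chemokine of activated macrophages, fell by 1.06 on the log2 scale (SE 0.11), from 10.97 ± 0.411 to 5.244 ± 0.676 CPM. Ppbp, a chemokine of platelets, rose by 0.81 (SE 0.12), from 3.503 ± 0.52 to 6.102 ± 0.395 CPM. Cxcl1 had 3 to 19 reads per library, Cxcl3 0 to 4 and Cxcl5 0 to 5, and these were not tested. Cxcr1, the neighbour and closest relative of Cxcr2, had 11 to 34 reads per library, and its log2 fold change of 0.18 (SE 0.29) was not called. Of the ligands of FPR2, Anxa1, the annexin gene, rose by 1.04 (SE 0.08), Camp rose as given above, and Saa3, a serum amyloid gene, fell by 1.48 (SE 0.17). Among receptors named for calprotectin, Tlr4 fell by 0.41, a call lost without TBK1-DKO 3 or WT 1 (adjusted p = 0.056 and 0.083, quasi-likelihood test), while Ager (0.11) and Cd36 (0.13) were not called. The shared signalling genes Gnai2, Gnai3, Pik3cg, Rac2 and Arrb2 were not called, with log2 fold changes between -0.10 and 0.16.

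Most relatives of the 7 genes were low or not called. Of 11 tested S100 genes, 4 rose and 7 were not called. Besides calprotectin these were S100a4 (0.39, a call lost without WT 3, adjusted p = 0.053, quasi-likelihood test) and S100a6 (0.42), while S100a11 (0.10) and S100a13 (-0.10) were not called. S100a10 (-0.22) was not called by edgeR (adjusted p = 0.057) but was called down by DESeq2 (adjusted p = 0.04), with the replicate block (0.018), without TBK1-DKO 2 (0.00055) and under 4 other settings. In the stefin A cluster 3 genes were tested and 0 were called by edgeR, DESeq2 or limma-voom (0 at an unadjusted p under 0.05), Gm5483 with 28 to 60 reads per library (log2 fold change 0.04) and Stfa1 with 5 to 33 (0.56, SE 0.45) besides Stfa2l1. Stfa2 and Stfa3 had 0 to 6 reads. In the resistin family Retnla, at 1.4 ± 0.0205 against 1.256 ± 0.11 CPM, was not called (0.16), Retn had 1 to 17 reads per library, and Retnlb had 0 reads.

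Some markers of other cell types that can express or accompany these genes were called as well, and their part in the results was not tested. The counts below stand beside 13.7% of all genes tested called up and 9.90% called down, and they only describe the lists. Of 14 monocyte markers, 3 rose, 6 fell and 5 did not pass, with a summed level of 2703 to 2736 CPM in TBK1-DKO and 3304 to 3354 CPM in WT. Those that fell included Csf1r, the receptor gene of the monocyte growth factor (log2 fold change -0.53), Treml4 (-0.52) and Vcan (-1.85), while F13a1 rose by 0.67. Ccr2 (-0.13) was not called, and the rise of Ly6c2 (0.22) was lost without any one library but WT 1 (adjusted p = 0.061 to 0.21, quasi-likelihood test). Without TBK1-DKO 1 or 3 or WT 2 or 3 the rise of Spn (0.19; adjusted p = 0.099 to 0.16) and the fall of Cd14 (-0.44; adjusted p = 0.052 to 0.069) were lost too. With 1 library left out the number of monocyte markers called up was 1 to 4. Of 9 red pulp macrophage markers, 8 fell and 1 was not called, with sums of 4240 to 4452 CPM against 6370 to 6659 CPM. Of 7 tested eosinophil markers, 3 rose (Epx, Prg2 and Ear1), 3 fell (Ccr3, Il5ra and Prg3) and 1 was not called. Their sums were 201.8 to 212 CPM against 269.6 to 298.7 CPM. Most of each sum was Ccr3, at 122.1 ± 1.59 CPM in TBK1-DKO and 225.2 ± 15 CPM in WT, so the sums mainly follow that gene. The call of Prg3 was lost without TBK1-DKO 1 or WT 3 (adjusted p = 0.053 and 0.055, quasi-likelihood test). Of 8 basophil and mast cell markers, 6 rose and 2 were not called, with sums of 80.12 to 82.61 CPM against 47.64 to 49.36 CPM. The rise of Cpa3 (0.48) was lost without any one library but WT 1 (adjusted p = 0.053 to 0.12, quasi-likelihood test). With 1 library left out, 5 to 7 of these markers were called up. Of 16 proliferation genes, 15 rose and 1 was not called. No tested marker of these lists was at 0 reads in a group.

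The 5 genes outside the set whose log2 level followed the mean standardised profile of the 7 most closely over the 6 libraries were Ppp1cc (Pearson r = 0.9982), 9530068E07Rik (0.9969), Kctd17 (0.9947), Tmc4 (0.9926) and Slc35b1 (0.99). Their log2 fold changes were small, 0.10, 0.08, 0.30, 0.13 and 0.22, and only Slc35b1 was called (adjusted p = 0.034, quasi-likelihood test). These libraries share depth and group differences, so the likeness is a description.

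**Figure D4:**
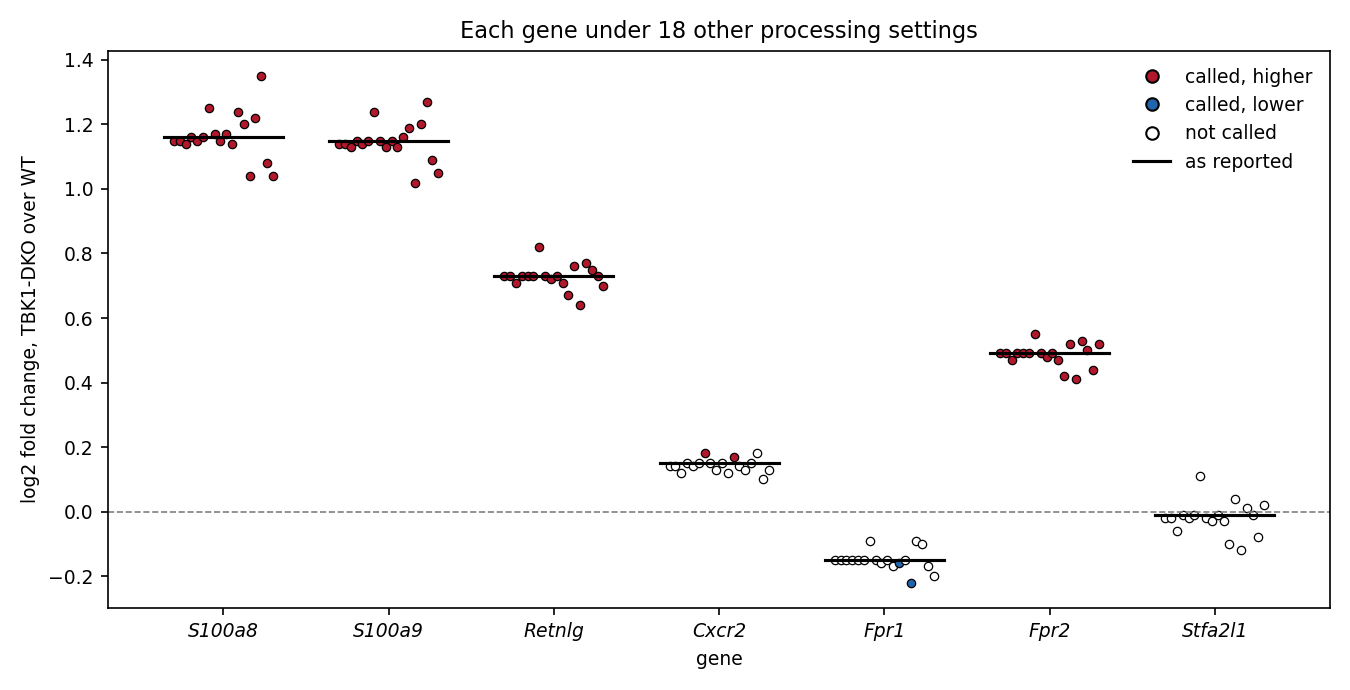
Log2 fold change of each gene (vertical axis) as reported (line) and under 18 other processing settings (points), filled where called at the threshold of that setting. S100a8, S100a9, Retnlg and Fpr2 were called upward under all 18, Cxcr2 under 2, Fpr1 was called downward under 2, and Stfa2l1 under none.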

How the data were processed

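RNA of splenic dendritic cells was sequenced in 3 TBK1-DKO and 3 WT libraries, grouped by their titles. The deposited values are whole-number read counts per gene symbol, with 1 file per library and no scaling by the authors. The tools named per the submitters' processing notes are HTSeq, DESeq2, TopHat and TopHat2, with build mm10, while their versions, the annotation and the strand setting were details not given in the sources used here. The rows that name no gene (8.20% to 10.7% of records) were left out. Positions and lengths came from GENCODE M21 (GRCm38, the assembly of mm10), which matched 21777 of 23420 symbols directly and 1248 through an older name.

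The count model was that of edgeR 4.0.16 (R 4.3.3). Low genes were removed with filterByExpr (minimum count 10), and libraries were scaled by TMM factors (0.996 to 1.012) and compared by the quasi-likelihood F test, with robust dispersions, no covariate and Benjamini-Hochberg adjustment over all 14388 genes. Genes with an adjusted p under 0.05 were called, and only these are said to have risen or fallen. Levels are CPM. Positive fold changes mean a higher level in TBK1-DKO, and each SE came from the F statistic. Ratios of reads were compared by exact two-sided permutation tests over the 6 libraries. On simulated counts for this comparison (14290 genes run, 199 of them changed), the calls took in 66% of the genes given a log2 change of 0.5 and 94.9% of those given 1, and unchanged genes made up 8.76% of the calls. The simulated libraries held no trends with length or GC content, unlike the real ones, so these shares may not hold for the real data.

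The members and the gene lists were chosen with earlier results of these data known. Named were all members, up to 6 genes of each list by smallest p, genes of the members' families, ligands and receptor partners, and the 5 genes most like the set's mean profile (at least 5 CPM). Lrg1, Trem3, Slpi, Pilra, Trem1, Il1b, Csf3r, Ctsc, Clec12a, Srgn, Igfbp4, Serpinb1a, Cst7, Mmp9, Adam8, Serpinb10, Ifitm6, Cebpa, Cebpb, Gfi1, Ccr2, Spn, Cd14, Cxcl12, Itgax, Cybb as a granule gene and Ly6c2 as a monocyte marker were chosen outside this rule after their values were seen. The ratios other than S100a8 over S100a9 were chosen after values were seen. The alternatives were DESeq2 1.42.0, limma-voom (limma 3.58.1), other scaling factors and filters, a replicate block, 11 haemoglobin and immunoglobulin chain genes removed, offsets for length and GC content (99.06% of tested genes), thinning to WT depth, libraries left out and a threshold of 0.01.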

Additional observations from a re-analysis of the deposited data

How the results depend on the processing

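The calls of S100a8, S100a9, Retnlg and Fpr2 kept their direction and side of the threshold under all 18 alternatives, with log2 fold changes of 1.04 to 1.35, 1.02 to 1.27, 0.64 to 0.82 and 0.41 to 0.55. Leaving out 1 library at a time gave 0.10 to 0.18 for Cxcr2, never called, -0.22 to -0.09 for Fpr1, called without TBK1-DKO 2, and -0.12 to 0.04 for Stfa2l1, never called. With length and GC offsets Cxcr2 was called at 0.18 and Stfa2l1 changed sign to 0.11. Without TBK1-DKO 2 and WT 1 Cxcr2 (0.17) and Fpr1 (-0.16) were called, so the number of the 7 genes called down was 1 in place of 0, as it was for 1 library left out (range 0 to 1). In that fit 3 primary granule genes, 1 specific granule gene and 13 further late neutrophil genes were called down, in place of 1, 0 and 8, and 3500 and 3397 genes of all were called up and down, in place of 1978 and 1424. With 1 library left out, 1 to 3 primary and 0 to 1 specific granule genes were called down. DESeq2, upper-quartile factors, no filter, the replicate block and thinning each called 2 primary granule genes down, and upper-quartile factors, the block and length and GC offsets 1 specific granule gene. At an adjusted p under 0.01, 1270 genes were up and 726 down. The causes were not tested. The difference in the log2 ratio of S100a8 to S100a9 ranged from -0.01 to 0.08 with 1 library left out, an alternative chosen after seeing the data.

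Same-numbered libraries of the groups deviated together with correlations of 0.173, 0.141 and -0.0591 across genes, and TBK1-DKO 3 did not correlate best with its own number, so the numbers were not taken to pair the libraries. With the replicate block the 7 genes had log2 fold changes of 1.17 for S100a8, 1.15 for S100a9 and Cxcr2 at 0.15, and the calls of all 7 were as without it. Depth limits Stfa2l1 most, at 74 to 117 reads per library.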

Other observations

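Genes of the Ly6 family, to which Ly6g belongs, moved in both directions. Of 10 tested Ly6-family genes, 2 rose, 3 fell and 5 were not called. Of all genes tested, 13.7% were called up and 9.90% down, so these counts only describe the family. The rise of Ly6c2 (0.22) was lost without any one library but WT 1 (adjusted p = 0.061 to 0.21, edgeR), which left 1 rise, and the fall of Ly6d (-0.31) without TBK1-DKO 1 or 3 or WT 2 or 3 (adjusted p = 0.068 to 0.072). Ly6a, the gene of the stem cell antigen Sca-1, rose by 0.58 on the log2 scale (SE 0.07), from 126.5 ± 6.79 to 188.8 ± 14.1 CPM. Ly6k fell by 0.86 (SE 0.12), from 7.663 ± 0.168 to 4.22 ± 0.721 CPM. Psca (chromosome 15, 74714839 to 74717069) had 5, 2 and 2 reads in TBK1-DKO 1, 2 and 3 and 158, 164 and 179 reads in WT 1, 2 and 3, and it was called down by edgeR's quasi-likelihood test (adjusted p = 3e-07). Ly6c1 (log2 fold change 0.03) and Ly6i (0.08) were not called.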
